A study of Homo sapiens with 6 samples.

Results

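Intermediate filament genes were followed across the 2 sorted populations of 1 cell line: the 6 keratins KRT7, KRT8, KRT18, KRT19, KRT80 and KRT81, the mesenchymal filament gene VIM, and the 3 lamin genes LMNA, LMNB1 and LMNB2. They were taken by gene symbol from the deposited table, where they made up 10 of 15024 listed genes. All 10 passed the filter on low values. KRT19, KRT7 and KRT81 were higher in CD104high than in CD104low cells, LMNB2 was lower, and KRT8, KRT18, KRT80, VIM, LMNA and LMNB1 did not pass the test.

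The cells were MDA-MB-231, an established human triple-negative breast cancer line with a mesenchymal character, carrying sgNT, a non-targeting guide. Every group had received 10 µM forskolin, an activator of adenylyl cyclase, for 14 days, so no untreated cells enter the comparison. Flow cytometry separated CD44+CD104high cells, which the series calls hybrid EMT (labelled E/M), from CD44+CD104-/low cells, which it calls mesenchymal (labelled M), and RNA of 3 libraries per gate was sequenced. The libraries are called biological replicates 1 to 3, and the labels do not say if cultures or sorts were separate, so p-values measure the spread between these libraries, which may be technical. MLL3-mutant cells of the same design are not analysed here. All cells derive from 1 line.

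Intermediate filaments are rope-like polymers of coiled-coil proteins. Keratins form obligate heteropolymers of a type II partner (KRT7, KRT8, KRT80 and KRT81 here) with a type I partner (KRT18 and KRT19), and KRT8 with KRT18 is the basic pair of simple epithelium. Vimentin polymerises with itself and is the usual filament of mesenchymal cells, while the lamins line the inner nuclear membrane. LMNA encodes the A-type lamins A and C by splicing, and LMNB1 and LMNB2 each encode a B-type lamin that stays anchored to the membrane. Carcinoma cells in EMT typically lose keratins and gain vimentin, and cells in between carry both.

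Between 52088604 and 56958065 reads per library were recovered from the deposited values over the listed genes. ITGB4, which encodes the sorted antigen CD104, was at 17659 ± 1766 normalised reads in CD104high and 3079 ± 743 in CD104low (SD, n = 3 each), a log2 difference of 2.54. Of the line's markers, VIM and CD44 were high in all 6 libraries, while ESR1, PGR and FOXA1 were not among the listed genes. CD44 was lower in CD104high without overlap, at a mean of 23950 against 26785, and did not pass (limma adjusted p = 0.113). ERBB2 and GATA3, also taken as low or absent in this line, were listed. They were at 8727 and 1665 mean normalised reads in CD104high and 7571 and 1462 in CD104low. Neither passed the test (limma adjusted p = 0.0501 and 0.475), although ERBB2 did with the replicate number as a block (0.0264). None of 5 leukocyte markers was listed, and 1 of 4 endothelial markers (KDR) was high enough to test. The 4 fibroblast markers tested (of 6 listed) had a median log2 difference of 1.06, and the 6 summed to 5067 to 7483 in CD104high and 3125 to 5156 in CD104low. COL1A2, a collagen chain, was the 1 of them that passed, and it was highest within each gate in the libraries numbered 3, at 1835 and 828 normalised reads. LUM, a matrix proteoglycan, had the next smallest p (log2 difference 2.22, limma adjusted p = 0.0591, and 4.13e-04 with the replicate number as a block). COL1A1, another collagen chain, hardly differed (log2 difference 0.09, limma adjusted p = 0.650). Unlike COL1A2, it was lowest within each gate in the libraries numbered 3, at 1108 and 1085. COL1A1 is named after its values were seen. The part of these markers in any result below was not tested.

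Several of the keratin genes have near-identical copies, which bears on how reads could be assigned. KRT81 and its neighbour KRT86 encode hair-type keratins whose coding sequences were identical at 94.2% of aligned bases, with 1 shared run of 605 coding bases. The 120 coding bases below are shown because the last 60 bases of that run and the 60 that follow contain only 2 bases that separate KRT86 from KRT81. KRT83, another hair-type copy, is aligned beneath them. The window runs from exon 3 into exon 4 of each gene, is read from the GENCODE v29 transcripts (GRCh38), and starts at coding base 606 in KRT81 and KRT86 and 621 in KRT83. Capitals mark bases that differ from KRT81.
KRT81: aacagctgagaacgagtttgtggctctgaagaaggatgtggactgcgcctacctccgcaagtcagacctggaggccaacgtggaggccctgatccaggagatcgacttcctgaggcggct
KRT86: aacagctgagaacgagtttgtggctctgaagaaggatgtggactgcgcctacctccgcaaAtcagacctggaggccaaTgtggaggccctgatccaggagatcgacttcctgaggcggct
KRT83: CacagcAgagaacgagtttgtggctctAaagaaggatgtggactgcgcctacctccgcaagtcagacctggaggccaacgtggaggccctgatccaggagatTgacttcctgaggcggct
KRT86 differed from KRT81 at 2 of these 120 bases and KRT83 at 4. A 50-base read from the shared run fits both KRT81 and KRT86, so levels of either gene depend on how the counting treated such reads.

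The other members were compared with all annotated transcripts in the same way. Of all 100-base windows along its principal transcript, KRT81 had 30.3% that also occurred exactly in another gene's transcript, VIM 33.7%, KRT18 16.6%, KRT7 7.67% and KRT8 6.73%. KRT19, KRT80 and the 3 lamins had none. A match in either orientation was counted. For VIM and KRT7 the matches were to antisense genes at the same locus. For KRT18 they were to KRT8, whose annotated exons overlap those of KRT18 on the opposite strand. With 50-base windows the shares were 47.6% for KRT18, 44.6% for KRT81, 43.8% for VIM, 37.1% for KRT8 and 10.8% for KRT7. They were 1.79% for KRT19 and 0.42% for KRT80, and the 3 lamins again had none. The annotation names 68 KRT18 pseudogenes and 50 KRT8 pseudogenes, and some of them hold such windows. The levels of KRT7, KRT8, KRT18, KRT81 and VIM are uncertain to that extent, and those of KRT19 and KRT80 to a smaller one. Whether the counting used strand is not given in the sources used here.

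KRT19, the smallest keratin and one without a tail domain, lies on chromosome 17 from 41523617 to 41528308 on the minus strand. Its normalised read counts were 26913, 26793 and 26359 in CD104high replicates 1 to 3 and 19675, 20919 and 19871 in CD104low replicates 1 to 3. All CD104high libraries lay above all CD104low libraries, and the libraries of each gate lay close together. The gap amounted to 0.41 on the log2 scale (SE 0.06; 1.32-fold; adjusted p = 0.00194 by limma with Benjamini-Hochberg adjustment over all 14343 genes tested). It passed the threshold of 0.05 in every alternative run on this scale, with adjusted p from 0.00408 to 0.0132 when 1 library was left out. Fold changes here and below are on the log2(value + 1) scale.

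KRT7, a type II keratin of ductal and glandular epithelium, lies on chromosome 12 from 52232520 to 52252186 on the plus strand. It was at 44983, 40456 and 39786 in CD104high and 37677, 30667 and 28369 in CD104low. The gates did not overlap, and replicate 1 was the highest library of each. It was higher in CD104high by 0.38 on the log2 scale (SE 0.10; 1.302-fold; limma adjusted p = 0.0264). The call was lost without CD104high replicate 1 (limma adjusted p = 0.11), CD104high replicate 2 (0.0639), CD104low replicate 2 (0.0819) or CD104low replicate 3 (0.0671). With the replicate number as a block it was kept (limma adjusted p = 0.00271), and without the mean-variance trend it was lost (0.0923).

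KRT81, a type II hair keratin also found in breast carcinoma lines, lies on chromosome 12 from 52285913 to 52291534 on the minus strand. It was at 26266, 23455 and 23011 in CD104high and 20812, 19760 and 18057 in CD104low. The gates did not overlap and replicate 1 was again the highest of each. It was higher in CD104high by 0.31 on the log2 scale (SE 0.08; 1.24-fold; limma adjusted p = 0.0198). The call was lost without CD104high replicate 1 (limma adjusted p = 0.0831), CD104low replicate 2 (0.05005) or CD104low replicate 3 (0.0551). With the replicate block it was kept (limma adjusted p = 0.00414), and without the mean-variance trend it was lost (0.0704). The copy KRT86 was at 917, 767 and 816 in CD104high and 698, 512 and 552 in CD104low. Its log2 difference was 0.51 (limma adjusted p = 0.0219; lost without CD104high replicate 1 or CD104low replicate 2, at up to 0.0956), and its counts were far below those of KRT81 in every library. How reads of the shared run were split between the 2 genes was not tested.

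KRT8, the type II member of the simple-epithelial pair, lies on chromosome 12 from 52897187 to 52949954 on the minus strand. It was at 64007, 62491 and 63409 in CD104high and 64457, 54808 and 51573 in CD104low. The gates overlapped, because CD104low replicate 1 was the highest of all 6 libraries. The log2 difference was 0.16 (95% interval -0.04 to 0.36; limma adjusted p = 0.228). Without CD104low replicate 1 it was 0.25 and passed (limma adjusted p = 0.0242). The spread in CD104low (SD 6703) was larger than in CD104high (SD 763).

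KRT18, its type I partner, lies next to KRT8 on chromosome 12 from 52948871 to 52952901 on the plus strand, and the annotated exons of the 2 genes overlap by 525 bases on opposite strands. It was at 17050, 15975 and 15017 in CD104high and 15677, 14345 and 13363 in CD104low. Each CD104high library was above the CD104low library of the same number, but the gates overlapped. On the log2 scale the difference came to 0.15 (95% interval -0.03 to 0.32; limma adjusted p = 0.201). With the replicate block the interval was 0.02 to 0.28 and limma adjusted p = 0.0772.

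KRT80, a type II keratin of broad epithelial expression, lies on chromosome 12 from 52168996 to 52192000 on the minus strand. It was at 16883, 15072 and 14610 in CD104high and 15822, 13586 and 12452 in CD104low. Within each gate the libraries fell in the same order as for KRT18, with the same-numbered CD104high library higher in 3 of 3 pairs and overlapping gates. Its log2 difference was 0.16 (95% interval -0.05 to 0.37; limma adjusted p = 0.258). With the replicate block the interval was 0.02 to 0.29 and limma adjusted p = 0.0714 (the block's intervals for KRT18 and KRT80 are not adjusted for the number of genes).

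VIM lies on chromosome 10 from 17228259 to 17237593 on the plus strand. It was at 20735, 23439 and 22882 in CD104high and 21588, 21079 and 20936 in CD104low. The gates overlapped, with CD104high replicate 1 the lowest of all 6 libraries. The log2 difference was 0.07 (95% interval -0.08 to 0.23; limma adjusted p = 0.469).

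**Figure D1:**
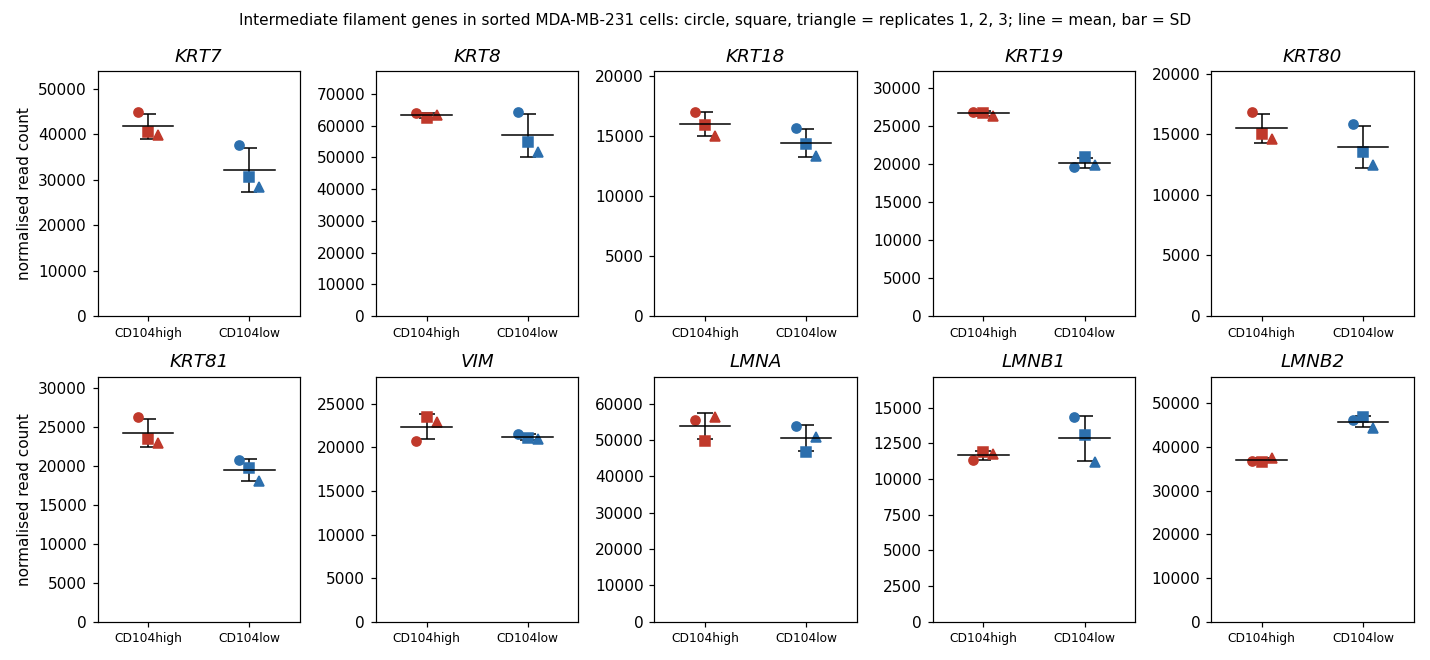
Normalised read counts (vertical axes, starting at 0) of the 10 genes in the 3 CD104high libraries (red) and the 3 CD104low libraries (blue); symbols mark replicates 1 to 3, the line is the mean and the bar the SD. The gates are separate for KRT7, KRT19 and KRT81, higher in CD104high, and for LMNB2, lower in CD104high; the other 6 panels overlap.

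LMNB2, a B-type lamin, lies on chromosome 19 from 2427638 to 2456996 on the minus strand. It was at 36842, 36597 and 37554 in CD104high and 46207, 46744 and 44328 in CD104low. All CD104high libraries lay below all CD104low libraries, and the gap between the gates was wider than the range within either. It fell by 0.31 on the log2 scale (SE 0.06; 1.24-fold lower in CD104high; limma adjusted p = 0.00838). It passed in every alternative run on this scale, with limma adjusted p from 0.0112 to 0.0384 when 1 library was left out.

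The 3′ end of LMNB2 overlaps its neighbour TIMM13, which encodes a mitochondrial import chaperone, on the same strand. In all, 303 annotated exon bases of LMNB2 (5.58%) are shared with TIMM13 or with the microRNA gene MIR7108. TIMM13 was at 4619, 4478 and 4367 in CD104high and 6187, 6039 and 5438 in CD104low, a fall of its own (log2 difference -0.39, limma adjusted p = 0.00432). The mean of TIMM13 was lower by 1400 reads and that of LMNB2 by 8762 reads. How reads from the shared bases were assigned was not tested.

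LMNB1, the other B-type lamin, lies on chromosome 5 from 126776623 to 126837020 on the plus strand. It was at 11341, 11937 and 11766 in CD104high and 14325, 13099 and 11199 in CD104low. The gates overlapped because CD104low replicate 3 was the lowest of all 6 libraries. The log2 difference was -0.13 (95% interval -0.33 to 0.06; limma adjusted p = 0.306), and without CD104low replicate 3 it was -0.23 (limma adjusted p = 0.0564).

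LMNA lies on chromosome 1 from 156082573 to 156140089 on the plus strand. It was at 55519, 49661 and 56209 in CD104high and 53854, 46705 and 50773 in CD104low. Replicate 2 was the lowest library of each gate, each CD104high library was above its same-numbered CD104low library, and the gates overlapped. The log2 difference was 0.09 (95% interval -0.09 to 0.28; limma adjusted p = 0.452). Gene-level values do not separate lamin A from lamin C.

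Counted together, 3 of the 10 genes were higher in CD104high and 1 was lower. Over all 14343 genes tested, 12.1% were called higher and 11.3% lower. The gates did not overlap for 4 of the 10, against 41.2% of all genes tested, so the members separated the gates no more often than other genes did. Their median log2 difference was 0.15, against 0.01 over all genes tested. In sorted bulk RNA, fewer cells that express a gene and less of its RNA per cell cannot be told apart.

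**Figure D2:**
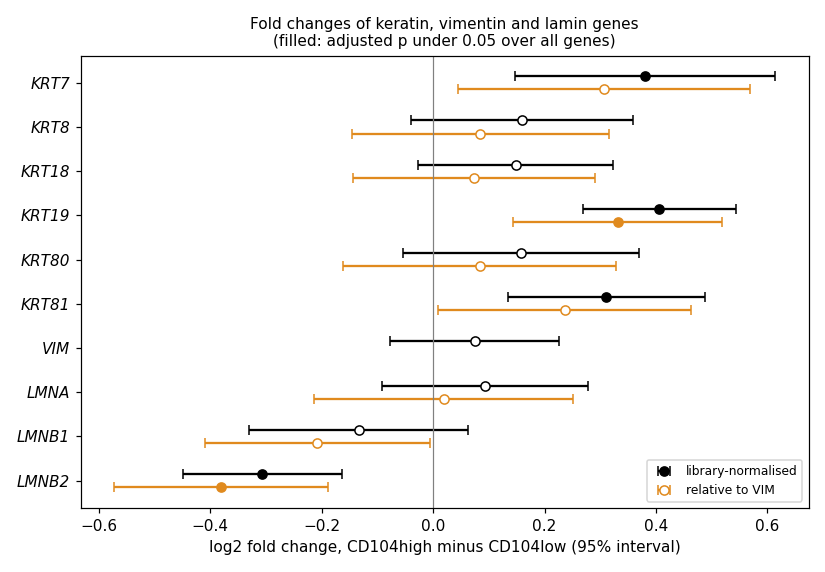
Log2 fold change of CD104high over CD104low (horizontal axis, with 95% intervals) for the 10 genes, as normalised by library (black) and after dividing every gene by VIM within each library (orange); filled symbols have an adjusted p under 0.05 over all genes. KRT19 and LMNB2 are filled on both scales, KRT7 and KRT81 only on the library-normalised scale.

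Ratios of 2 genes within a library do not depend on how the libraries were scaled. The ratio of KRT8 to KRT18 normalised reads was 3.75, 3.91 and 4.22 in CD104high and 4.11, 3.82 and 3.86 in CD104low. The gates overlapped fully, and the coefficient of variation over all 6 libraries was 4.604%. The log2 difference of the ratio was 0.01 (exact two-sided permutation p = 0.9, n = 3 each). The same difference had a 95% interval of -0.20 to 0.22 in the limma fit relative to KRT18 (adjusted p = 0.949). That fit subtracted the log2 value of KRT18 from every gene, and called 5.15% of all genes higher and 15.9% lower. KRT80 to KRT8 varied as little (4.47%), with a log2 difference of -0.0011 and overlapping gates.

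In a further 3 keratin ratios within the family the gates did not overlap. As single genes, 41.2% of all genes tested also separated the gates, and the share over all gene ratios was not taken. KRT7 to KRT8 was 0.703, 0.647 and 0.627 in CD104high and 0.585, 0.560 and 0.550 in CD104low. KRT81 to KRT8 was 0.410, 0.375 and 0.363 against 0.323, 0.361 and 0.350. KRT19 to KRT18 was 1.58, 1.68 and 1.76 against 1.26, 1.46 and 1.49. Each had an exact two-sided permutation p of 0.1, the smallest that 3 against 3 libraries allow, and 0.25 after Benjamini-Hochberg adjustment over the 15 ratios, so none can pass 0.05 in this design. In the limma fit relative to KRT18, KRT19 had a log2 difference of 0.26 with adjusted p = 0.0861, and 0.00582 with the replicate number as a block.

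Keratin to vimentin ratios compare the epithelial with the mesenchymal filament genes. KRT19 to VIM was 1.298, 1.143 and 1.152 in CD104high and 0.911, 0.992 and 0.949 in CD104low, without overlap. KRT81 to VIM was 1.27, 1.00 and 1.01 against 0.964, 0.937 and 0.862, also without overlap. KRT7 to VIM was 2.17, 1.73 and 1.74 against 1.75, 1.45 and 1.36, with overlap. The ratios of KRT8, KRT18 and KRT80 to VIM overlapped too, with log2 differences of 0.08, 0.07 and 0.08. The exact two-sided permutation p was 0.1 for KRT19 and KRT81, 0.3 for KRT7, and 0.4 to 0.7 for the other 3.

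In the limma fit relative to VIM, 7.97% of all genes were called higher and 14.9% lower. KRT19 was higher by 0.33 (limma adjusted p = 0.0179) and LMNB2 fell by 0.38 (limma adjusted p = 0.0108). KRT7 was at 0.31 (limma adjusted p = 0.0869) and KRT81 at 0.24 (limma adjusted p = 0.121). With the replicate number as a block both passed, at limma adjusted p = 0.00728 and 0.0381. The KRT19 call relative to VIM was lost without CD104low replicate 1 (limma adjusted p = 0.0524) and without the mean-variance trend (0.0598), and the LMNB2 call without CD104low replicate 2 (0.0532). With both libraries numbered 3 left out, neither passed (limma adjusted p = 0.0771 for KRT19 and 0.0677 for LMNB2).

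Among the lamins, LMNA to LMNB2 was 1.507, 1.357 and 1.497 in CD104high and 1.165, 0.999 and 1.145 in CD104low. The gates did not overlap, and the log2 difference of 0.40 was the largest of the 15 ratios (exact two-sided permutation p = 0.1, the smallest possible). LMNA to LMNB1 was 4.90, 4.16 and 4.78 against 3.76, 3.57 and 4.53, with overlap. LMNB1 to LMNB2 was 0.308, 0.326 and 0.313 against 0.310, 0.280 and 0.253, with overlap. The limma fit relative to LMNB1 called 11.7% of all genes higher and 1.46% lower. In it LMNA was at 0.23 (limma adjusted p = 0.26) and LMNB2 at -0.17 (limma adjusted p = 0.366). LMNA relative to LMNB1 passed without CD104low replicate 3, the library with the lowest LMNB1 (log2 difference 0.33, limma adjusted p = 0.0269). A difference between the 2 B-type lamins was therefore not shown, although 1 of them passed the test and the other did not.

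Levels of different genes were compared as normalised reads per kilobase of the principal GENCODE transcript. KRT8 was highest, at 33636 ± 406 in CD104high and 30258 ± 3562 in CD104low. In CD104high it was followed by KRT7 (23798), KRT19 (19200), LMNA (16864), KRT81 (12568), VIM (11966), KRT18 (10252), LMNB2 (7921), LMNB1 (4059) and KRT80 (4022). KRT81 and VIM did not differ beyond their SDs of 915 and 764, and neither did LMNB1 and KRT80 (SDs 107 and 311). In CD104low, LMNA (15813) stood above KRT19 (14500), VIM (11350) above KRT81 (10131), and LMNB2 (9797) above KRT18 (9259). LMNB2 and KRT18 did not differ there beyond the SD of KRT18 (743), and LMNA was not above KRT19 in every CD104low library. VIM was thus neither the highest nor the lowest filament gene per kilobase in either gate. The order rests on the length used: per kilobase of all annotated exons, KRT81 led in CD104high (12568), followed by KRT19 (11425), KRT7 (10198) and KRT8 (9200).

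The 6 keratins together reached 103476 ± 3896 normalised reads per kilobase in CD104high and 86143 ± 8009 in CD104low, without overlap. Divided by VIM in the same library, the sum was 8.69 ± 0.90 against 7.58 ± 0.58, with overlap. With the length of all annotated exons the same ratio was 12.04 ± 1.34 against 10.4 ± 0.69, without overlap. Type II over type I keratins among these 6 was 2.51 ± 0.06 against 2.62 ± 0.26, with overlap (SD, n = 3 each). Other listed keratins were not in these sums. KRT8 over KRT18 per kilobase was 3.29 in CD104high and 3.26 in CD104low, and 1.85 and 1.84 with all annotated exons, so the size of this ratio depends on the length while its likeness between the gates does not.

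**Figure D3:**
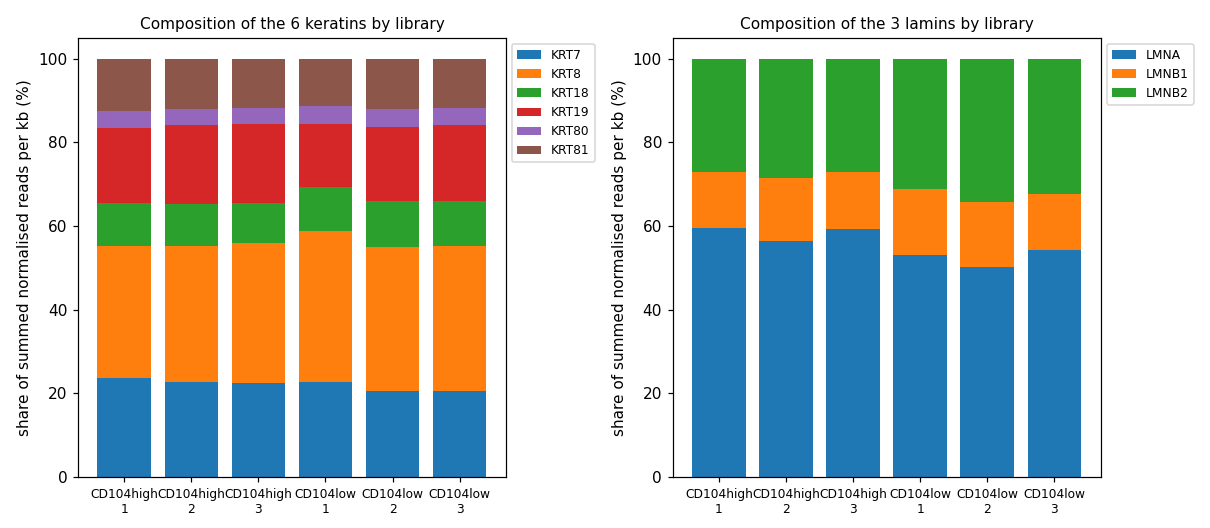
Share of each gene (vertical axis, %) in the summed normalised reads per kilobase of the 6 keratins (left) and the 3 lamins (right), 1 bar per library. The LMNB2 share is lower in the 3 CD104high libraries, and the keratin shares differ by a few percentage points.

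As shares of the keratin sum, KRT8 made up 32.5 ± 0.98% in CD104high and 35.1 ± 0.92% in CD104low, KRT18 9.90 ± 0.31% and 10.8 ± 0.15%, and KRT80 3.88 ± 0.15% and 4.19 ± 0.12% (SD, n = 3 each). These 3 shares were lower in CD104high without overlap. The shares of KRT7 (23.0% and 21.3%), KRT19 (18.6% and 16.9%) and KRT81 (12.1% and 11.8%) overlapped between the gates. Shares of a sum are tied to each other, so a lower share of KRT8 does not mean fewer KRT8 reads. Of the lamin sum, LMNA made up 58.4 ± 1.67% in CD104high and 52.5 ± 2.16% in CD104low, and LMNB2 27.5 ± 0.83% and 32.6 ± 1.57%, both without overlap. LMNB1 was at 14.1% and 14.8%, with overlap.

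The genes most like a member were taken as the tested protein-coding genes whose log2 ratio to the member varied least over the 6 libraries. For KRT18 these were INPP5K, TNKS1BP1 and CD276 (SD 0.02, 0.03 and 0.03 on the log2 scale). KRT80 ranked 24 and KRT8 ranked 99 of 13100 genes in likeness to KRT18, while KRT19 ranked 3309. KRT18 ranked 86 and KRT80 ranked 81 in likeness to KRT8. Thus KRT8, KRT18 and KRT80 kept closer proportions to each other than to KRT19.

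For KRT19 the most alike genes were EML2, SFXN3 and SREBF1 (SD 0.02, 0.02 and 0.03), and the most alike member was KRT81, ranked 393. For VIM they were PEX19, MED7 and RAB11A (0.02, 0.02 and 0.03), and the most alike member was LMNA, ranked 2337. For LMNA they were SEPTIN9, GNB5 and ZNF710 (0.02, 0.02 and 0.03), and for LMNB1 ILVBL, TRIB3 and CARNMT1 (0.01, 0.02 and 0.02). LMNB2 ranked 2480 in likeness to LMNB1 and 7646 in likeness to LMNA. These matches over 6 libraries that share their scaling are descriptions only.

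Among 9 other keratin genes, all tested, KRT86 was the 1 higher and none was lower. Of all genes tested, 12.1% were called higher and 11.3% lower. The median log2 difference of the 9 was 0.28 (0.01 over all genes tested). None of the 9 was called without CD104high replicate 1 or without CD104low replicate 2. KRT87P, a pseudogene beside KRT86, was at 218, 217 and 253 in CD104high and 156, 173 and 168 in CD104low, with log2 difference 0.47 (limma adjusted p = 0.0513, and 0.0304 with the replicate block). Annotated exons of KRT87P overlap those of KRT7 on the other strand, and it shares exact 100-base windows with KRT81. How reads were split between KRT87P and these 2 members was not tested. KRT5, KRT14, KRT17 and KRT6B, keratins of basal and stratified epithelium, were not among the listed genes. TP63, a transcription factor taken as a further basal marker, was listed at low values. Its mean was 20.4 in CD104high and 11.5 in CD104low, without overlap (log2 difference 0.86, limma adjusted p = 0.171). KRT7-AS, antisense to KRT7, was at 0.06 (limma adjusted p = 0.803), and VIM-AS1, antisense to VIM, was at -0.22 (limma adjusted p = 0.471). KRT18P55 was the 1 listed gene of the 68 KRT18 pseudogenes, and none of the 50 KRT8 pseudogenes was listed. Its means were low, at 12.7 in CD104high and 9.69 in CD104low (log2 difference 0.31, limma adjusted p = 0.718).

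Of 12 other intermediate filament genes, 6 were tested, 3 were higher and 1 was lower in CD104high, with a median of 0.32. Over all genes tested, 12.1% were called higher and 11.3% lower. Counts over so few genes are descriptions only. SYNM, encoding synemin, a large partner that co-assembles with vimentin, was at 2301, 2086 and 2193 in CD104high and 1313, 1558 and 1749 in CD104low (log2 difference 0.52, limma adjusted p = 0.00752). SYNC, encoding syncoilin, was at 230, 184 and 318 against 109, 136 and 126 (0.95, limma adjusted p = 0.0123). Both separated the gates, as did 41.2% of all genes tested, while the VIM values overlapped. BFSP1, a lens filament gene, was the other one higher (log2 difference 0.50; lost without CD104high replicate 1 or 2 or CD104low replicate 2 or 3, at limma adjusted p up to 0.0973), and NEFL, the light neurofilament gene, was the one lower, at a mean of 6.02 against 17.8 normalised reads (-1.43, limma adjusted p = 0.0477). BFSP1 and NEFL are named after their values were seen. No gene of the list was called lower with the replicate block or with any 1 library left out.

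Of 10 filament linkers and keratin network regulators, 1 was higher and 2 were lower, with a median of 0.23. The shares of all genes tested were 12.1% higher and 11.3% lower. PPL, encoding periplakin, a linker of filaments to the cornified envelope and desmosomes, was at 1157, 850 and 984 in CD104high and 359, 285 and 402 in CD104low (log2 difference 1.52, limma adjusted p = 3.44e-04). CSNK1A1, a kinase that acts on keratin networks, fell by 0.22 (8137, 8156 and 7945 against 9594, 9622 and 9084; limma adjusted p = 0.0249). That call was lost without any 1 of the CD104high libraries or CD104low replicate 2, at limma adjusted p up to 0.0866. The other gene lower was TCHP, which encodes the keratin-binding protein trichoplein (log2 difference -0.29, limma adjusted p = 0.0327), named after its values were seen. It was lost without CD104high replicate 2 or 3 or CD104low replicate 2 or 3, at limma adjusted p up to 0.117. None of the list was lower without CD104high replicate 2, CD104high replicate 3 or CD104low replicate 2, or without the mean-variance trend. With the replicate block, 3 of the list were higher and 2 lower.

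Of 13 epithelial transcription and splicing factors, 10 were tested, 1 was higher and none lower, with a median of 0.12. The shares of all genes tested were 12.1% higher and 11.3% lower. KLF5, an epithelial transcription factor, was at 3206, 3140 and 3206 in CD104high and 2728, 2663 and 2820 in CD104low (log2 difference 0.22, limma adjusted p = 0.0379). The next smallest p was that of GRHL1, at 35.6, 26.8 and 26.8 against 51.4, 44.3 and 49.4 (log2 difference -0.70, limma adjusted p = 0.0944). KLF5 passed in none of the 6 fits that left out 1 library, where limma adjusted p ran from 0.0520 to 0.12, whichever library of either gate was left out. With the replicate block 2 of the list were higher, and without the mean-variance trend none was higher and 1 was lower.

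Of 19 lamina partners and lamin-processing enzymes, all tested, none was higher and 4 were lower in CD104high, with a median of -0.09. The shares of all genes tested were 12.1% higher and 11.3% lower. LBR, the lamin B receptor of the inner nuclear membrane, was at 9923, 11064 and 10420 in CD104high and 13133, 14002 and 13305 in CD104low (log2 difference -0.37, limma adjusted p = 0.0043). SYNE3, which encodes a nesprin of the outer nuclear membrane, fell by 0.39 (659, 615 and 746 against 919, 902 and 828; limma adjusted p = 0.0257). LBR passed with each library left out, and SYNE3 did not pass without CD104high replicate 1 or 2 or without CD104low replicate 1 or 2. The other genes lower, named after their values were seen, were ZMPSTE24, the protease that matures prelamin A (-0.25, limma adjusted p = 0.0349), and BANF1, a chromatin-bridging factor of the nuclear envelope (-0.27, limma adjusted p = 0.0396). Each of these 2 passed in 2 of the 6 fits that left out 1 library. The number lower was 7 with the replicate block. It was 1 without CD104high replicate 1, 2 without CD104high replicate 2, CD104high replicate 3 or CD104low replicate 1, and 1 gene was higher without CD104low replicate 1.

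Cell division genes are a group with which LMNB1 levels are known to move. Of 20 tested, 8 were lower in CD104high and none was higher, with a median of -0.20. Over all genes tested, 11.3% were called lower and 12.1% higher. In the list 12 genes did not pass, and 3 had a log2 difference above 0. PLK1, a mitotic kinase, was at 8863, 8713 and 8536 in CD104high and 12725, 11823 and 11493 in CD104low (log2 difference -0.46, limma adjusted p = 0.00126). CDC20, which activates the ligase that starts anaphase, was at 12478, 11520 and 12318 against 21245, 17700 and 16788 (-0.61, limma adjusted p = 0.00165). Summed over the 20 genes, the CD104high libraries lay between 291581 and 313287 and the CD104low libraries between 333435 and 344120. LMNB2 was also lower in CD104high, and the part of these genes in its difference was not tested. The number lower was 5 without CD104high replicate 2 and 5 without the mean-variance trend. With the replicate block 10 were lower and 1 was higher, TOP2A, a topoisomerase of dividing cells (log2 difference 0.23; limma adjusted p = 0.0551, and 0.0244 with the block), named after its values were seen.

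**Figure D4:**
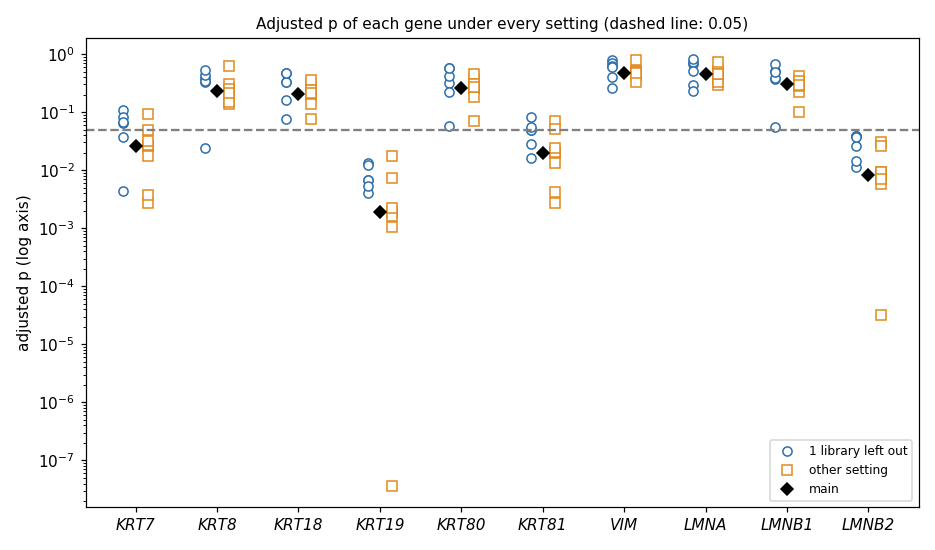
Adjusted p (vertical log axis) of each of the 10 genes in the reported fit (diamonds), with 1 library left out (circles) and under the other settings (squares); the dashed line is 0.05. KRT19 and LMNB2 stay below the line throughout, KRT7 and KRT81 cross it, and KRT8 falls below it once, without CD104low replicate 1.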

How the data were processed

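The 10 genes and all gene lists were chosen with earlier results of these data known. RNA of 6 sorted MDA-MB-231 samples, 3 per gate, was analysed from 1 deposited table of gene-level values. The submitters' processing notes name FastQC, STAR 2.4.0, featureCounts 1.5.0, DESeq2 1.30.1, GRCh38.p13 and hg38, without saying which step each served. The sources used here do not give the strand setting or row filters. The deposited per-sample values are a signal: read counts that the authors divided by a size factor per library. Dividing by what 1 read was worth gave whole reads (within 0.1) for at least 99.99% of values in each library. The authors' deposited columns of log2 fold changes, test score and p-values were not used.

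Values were tested with limma 3.58.1 in R 4.3.3 (log2(value + 1), prior variance following mean expression) over the 14343 genes at 10 or more in at least 3 libraries (681 removed). P-values were adjusted by Benjamini and Hochberg's method and called under 0.05. Refits subtracted VIM, KRT18 or LMNB1 within each library. Ratios had exact permutation tests. The fit was tested on simulated counts with known changes, the same dispersion for all genes and no effect of the replicate number. That run therefore could not show how the fit treats libraries that deviate together. Alternatives were a replicate block, pseudocounts of 0.1 and 5, no filter, no trend, equal totals, edgeR 4.0.16 and DESeq2 1.42.0 on recovered reads, each library left out, and, added after seeing the data, both libraries numbered 3 left out. Same-numbered libraries deviated together (correlations of 0.166, 0.317 and 0.477 for numbers 1, 2 and 3). The numbers were therefore taken as pairs in the block runs and in comparisons of same-numbered libraries. The reported fit and the printed permutation tests did not use the pairs. This pairing comes from the data, not from the labels.

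Named genes were the 10 members, the 2 genes of smallest p in each list, genes overlapping a member, and the 3 genes of steadiest ratio to each of 6 members, of which those for KRT8 are not reported here. Positions, transcripts, lengths and shared windows come from GENCODE v29 (GRCh38), whose gene versions differ in part from those of the table, with Python 3.11.15 and Biopython 1.88.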

Additional observations from a re-analysis of the deposited data

How the results depend on the processing

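KRT19 and LMNB2 kept their direction and call under every alternative run on the library-normalised scale. Relative to VIM, the KRT19 call was lost without the trend (limma adjusted p = 0.0598), without CD104low replicate 1 (0.0524) and with both libraries numbered 3 left out (0.0771), and the LMNB2 call without CD104low replicate 2 (0.0532) and with both numbered 3 left out (0.0677). Without the mean-variance trend, KRT7 (log2 difference 0.38, limma adjusted p = 0.0923) and KRT81 (0.31, limma adjusted p = 0.0704) did not pass. Without the trend, 1 member was called higher and 936 genes lower (1625 in the reported fit), and, relative to VIM, 719 were higher and 1110 lower. With both libraries numbered 3 left out, KRT7 was at 0.33 (limma adjusted p = 0.050003) and KRT81 at 0.29 (limma adjusted p = 0.0515), 1 member was called higher, and 1281 genes were lower relative to VIM. The cause was not tested. The replicate block, which uses the pairing of library numbers, raised the genes called from 1730 to 2498 higher and from 1625 to 2208 lower, and changed the call of none of the 10 members on the library-normalised scale.

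With 1 library left out, log2 differences ranged from 0.29 to 0.50 for KRT7, 0.25 to 0.36 for KRT81 and 0.091 to 0.25 for KRT8. The members called higher ranged from 1 to 4, genes called from 1017 to 1766 higher and 799 to 1547 lower, and relative to VIM from 713 to 1229 higher and 1056 to 2363 lower. The sign of 5 ratios near 0 changed: KRT8 to KRT18 ranged from -0.036 to 0.049, KRT80 to KRT8 from -0.055 to 0.042, KRT18 to VIM from -0.026 to 0.14, KRT80 to VIM from -0.032 to 0.16 and LMNA to VIM from -0.058 to 0.11. KRT8 relative to KRT18 was -0.049 with both libraries numbered 3 left out. With 3 libraries a gate, no ratio could pass an exact test.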
